A study of Mus musculus with 16 samples.

Results

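The comparison described here set the effect of acute swim stress on astrocyte ribosome-bound RNA against the effect of the same stress on the RNA of the whole cortex. It used all 16 of the 16 libraries and asked, gene by gene, whether the change from naïve to stressed mice in the immunoprecipitate (IP) differed from the change in the cleared lysate (INPUT). Genes were taken when their mean over the 16 libraries was above 1 CPM (fragments on a gene per 1000000 fragments counted on genes), which kept 13341 of 24060 genes. Responses were then sorted into those shared by IP and INPUT, those measured in IP with little or no change in INPUT, and those that ran in opposite directions.

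Every mouse was a C57BL/6J mouse of the genotype Aldh1l1CreERT2-RiboTag, 3 months old, and every mouse, controls included, had received tamoxifen at 2 months. In these mice the Aldh1l1 promoter, active in astrocytes, drives an inducible Cre, and after tamoxifen the recombined cells carry an HA-tagged ribosomal protein Rpl22. The share of astrocytes that recombined is not given in the sources used here. Stressed mice swam for 20 min and rested for 90 min in the home cage before the somatosensory cortex was taken, and naïve mice stayed in the home cage. Each of the 2 fractions had 4 libraries of naïve and 4 of stressed mice, which gave 4 groups, and replicate numbers below are the library numbers 1 to 16. According to the methods IP and INPUT are portions of the same lysates, but which IP and INPUT libraries belong to the same mouse is not given, so the 2 fractions were read as separate libraries although they are not separate animals, and the p-values of the difference take them as independent.

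Astrocytes carry glucocorticoid and adrenergic receptors and respond to stress hormones at the level of transcription. Glucocorticoid hormone enters cells, binds its receptor and induces genes such as Tsc22d3 and Nfkbia in most cell types, whereas immediate early genes such as Fos and Egr2 follow neuronal firing and growth factor signals. RNA of the whole cortex holds the messages of neurons, glia and vessels together, astrocytes included, so a change confined to astrocytes can be small there, and a change in neurons can appear in INPUT alone.

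The libraries held between 16392876 and 25814364 fragments on genes. The summed level of 12 astrocyte markers was 92977 to 104826 CPM in the 8 IP libraries and 5788 to 6684 CPM in the 8 INPUT libraries, and that of 12 neuronal markers was 580 to 894 CPM in IP and 12158 to 14412 CPM in INPUT. In IP the sums of naïve and stressed mice were 180 to 271 and 176 to 221 CPM for oligodendrocyte precursor, 291 to 336 and 282 to 356 CPM for oligodendrocyte, and 162 to 219 and 136 to 170 CPM for endothelial and mural markers. Of the IP libraries, naïve replicate 11 and stress replicate 15 had the lowest array weights of the 16 (0.515 and 0.400, where a weight below 1 marks more scatter than average). Naïve IP replicate 11 was the highest naïve IP library for 44 of the 58 genes that rose in IP, against 21.1% of all genes tested, and stress IP replicate 15 was the lowest stress IP library for 33 of them, against 32.9% of all genes. In INPUT, naïve replicate 14 was the highest naïve library for 30 of the same 58 genes, against 30.3% of all genes. For several of the genes below, values without replicate 11 or 15 are also given.

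After stress, 129 genes changed in IP (58 rose and 71 fell, 0.967% of the genes tested), 4 genes changed in INPUT (all 4 rose, 0.03%), and 3 genes had a stress effect that differed between the fractions (0.0225%), each at an adjusted p under 0.05 in limma. The stress effect is the difference between the mean log2(CPM + 0.1) of the 4 stress and the 4 naïve libraries of a fraction, and the difference of effects is the IP effect minus the INPUT effect. At an unadjusted p under 0.05, 515 genes were higher in stress IP (3.86%), 953 lower in stress IP (7.14%), 244 higher in stress INPUT (1.83%) and 267 lower in stress INPUT (2.0%), and the difference of effects passed in 629 genes (4.71%). The median effect over all genes was −0.0058 in IP and −0.0021 in INPUT. Without naïve IP replicate 11 the number of genes with a different effect was 28, without stress IP replicate 15 it was 5, and without both it was 59, which held the same 3 genes each time. Leaving out naïve INPUT replicate 7, naïve IP replicate 2, 8 or 13, stress INPUT replicate 1 or 10, or stress IP replicate 4 or 5 gave 2 genes each, without Axin2. The genes called in IP numbered 59 without naïve IP replicate 13, 64 without naïve IP replicate 2, 177 without naïve IP replicate 11 and 416 without stress IP replicate 15.

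**Figure D1:**
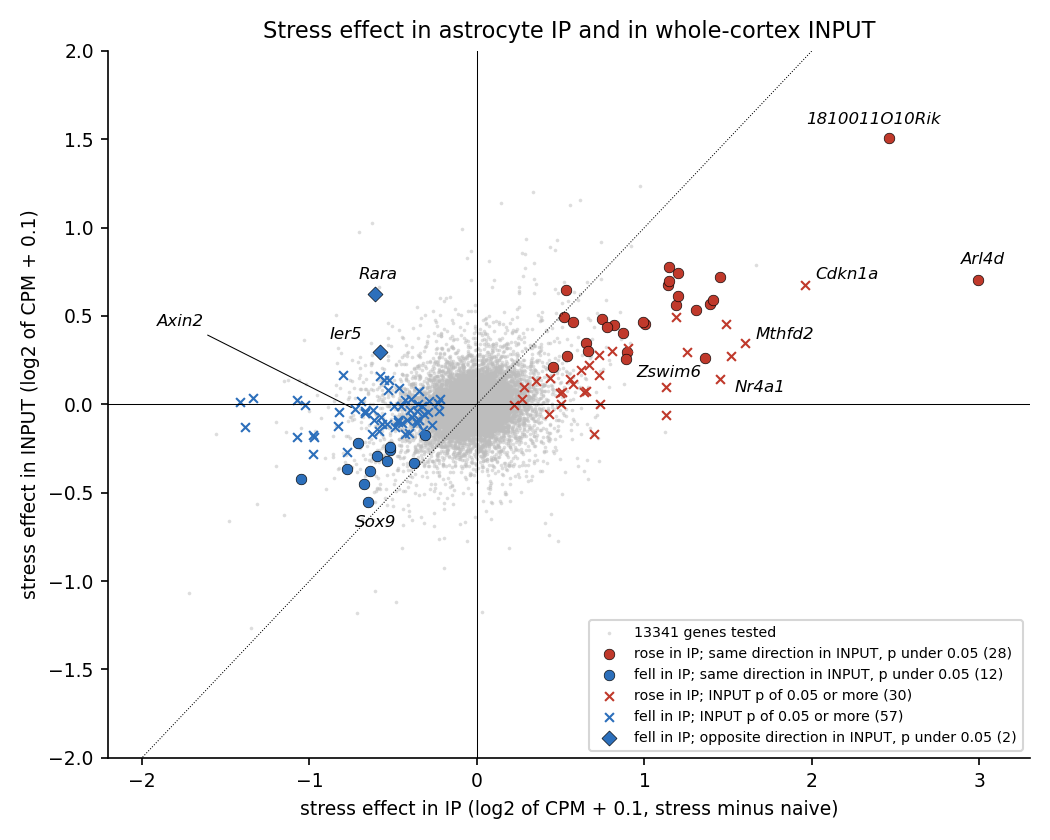
Stress effect of each of 13341 genes in IP (horizontal axis) and in INPUT (vertical axis), both as log2 of CPM + 0.1. Red and blue symbols are the 58 genes that rose and the 71 that fell in IP, with symbols that show the INPUT reading, and the dotted line marks equal effects. Most coloured symbols lie nearer to the horizontal axis than to the dotted line, and the falling genes Rara and Ier5 lie above the horizontal axis.

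The 3 genes whose effects differed each showed another pattern. Zswim6 encodes a protein with a SWIM-type zinc finger, and it lies on chromosome 13 of GRCm38 (mm10) from 107724617 to 107890064. Its level was 32.3, 31.3, 34.0 and 33.2 CPM in the naïve IP libraries and 81.9, 77.3, 94.3 and 83.7 CPM in the stress IP libraries. In INPUT it was 41.0, 40.6, 35.4 and 37.1 CPM in naïve and 49.3, 46.7, 42.4 and 46.3 CPM in stressed mice. Every stress value lay above every naïve value in both fractions, and the gap was far wider in IP. The effect was 1.36 in IP (standard error 0.07, adjusted p = 1.7e-09) and 0.26 in INPUT (standard error 0.07, unadjusted p = 0.0016, adjusted p = 0.60). Their difference was 1.10 (95% interval 0.89 to 1.31, adjusted p = 2.2e-05). The difference held in each of the 16 fits that left out a library, between 1.04 and 1.14.

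Rara, retinoic acid receptor alpha, is a ligand-dependent transcription factor encoded on chromosome 11 from 98927800 to 98974942. It was measured at 19.6, 17.6, 19.2 and 21.5 CPM in naïve IP and at 11.8, 13.8, 11.9 and 13.6 CPM in stress IP. In INPUT the order was turned round, with 17.6, 24.3, 14.9 and 20.1 CPM in naïve and 26.9, 28.4, 30.5 and 31.2 CPM in stressed mice. Groups did not overlap in either fraction. The IP effect was −0.61 (standard error 0.12, adjusted p = 0.012), the INPUT effect 0.62 (standard error 0.12, unadjusted p = 4.6e-05, adjusted p = 0.088) and the difference −1.23 (95% interval −1.58 to −0.88, adjusted p = 0.0045). The difference passed without any single library, between −1.35 and −1.12, whereas the fall within IP did not pass without naïve IP replicate 13, naïve IP replicate 2 or stress IP replicate 4 (adjusted p = 0.064, 0.051 and 0.054).

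Axin2, a negative regulator of β-catenin that Wnt signalling itself induces, lies on chromosome 11 from 108917828 to 108950783. It stood at 63.4, 60.5, 60.7 and 61.9 CPM in naïve IP and at 33.7, 35.8, 38.3 and 41.3 CPM in stress IP, 2 ranges far apart. The INPUT values of naïve mice (40.04, 43.1, 38.4 and 48.0 CPM) and of stressed mice (45.3, 39.6, 42.0 and 39.0 CPM) overlapped. The effect was −0.73 in IP (standard error 0.08, adjusted p = 8.5e-05) and −0.03 in INPUT (95% interval −0.19 to 0.13), and the difference was −0.70 (95% interval −0.93 to −0.47, adjusted p = 0.019). This difference passed in 7 of the 16 fits that left out a library. The fits without naïve INPUT replicate 3 or 7, naïve IP replicate 2, 8 or 13, stress INPUT replicate 1 or 10, or stress IP replicate 4 or 5 gave adjusted p-values of up to 0.076, with the difference between −0.76 and −0.65 in all 16. Without a variance trend it did not pass either (adjusted p = 0.086).

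**Figure D2:**
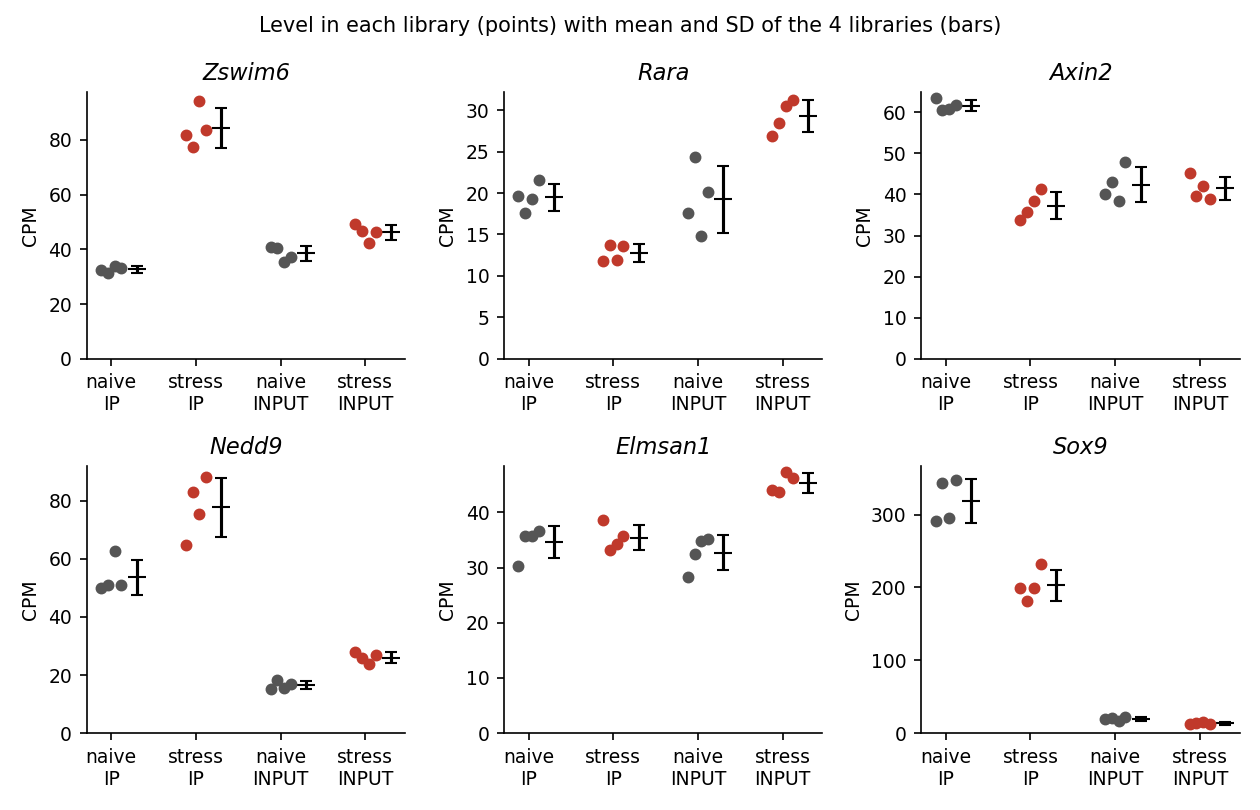
Level in CPM of Zswim6, Rara, Axin2, Nedd9, Elmsan1 and Sox9 in each of the 16 libraries (points, 4 in each group) with the group mean and SD (bars). Zswim6 rises in both fractions with the wider gap in IP, and Axin2 falls in IP with overlapping values in INPUT. Rara moves in opposite directions, Nedd9 and Sox9 move the same way in both fractions, and Elmsan1 rises in INPUT with overlapping values in IP.

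The INPUT reading of the 129 genes that changed in IP differed between genes that rose and genes that fell. Of the 58 that rose, 53 were also above 0 in INPUT, against 49.0% of all genes tested. At an unadjusted p under 0.05, 28 of the 58 were higher in stress INPUT (1.83% of all genes) and 0 were lower (2.0%). The median effect of the rising genes was 0.81 in IP and 0.30 in INPUT. Of the 71 that fell, 52 were also below 0 in INPUT, against 51.0% of all genes. At that p 12 of the 71 were lower in stress INPUT (2.0% of all genes), and 2, Rara and Ier5, were higher (1.83%). The median of the falling genes was −0.54 in IP and −0.087 in INPUT. Every stress INPUT value lay above every naïve INPUT value for 16 of the 58 rising genes, as it did for 1.43% of all genes tested, and every one lay below for 5 of the 71 falling genes, against 1.42%.

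Genes were also ordered by their enrichment in astrocyte RNA, taken as the mean log2 level of the 8 IP libraries minus that of the 8 INPUT libraries, a measure that averages naïve and stress libraries and so holds part of the difference of effects. By a limit of 2-fold, 1716 of the tested genes were enriched in IP, 5135 were depleted and 6490 were neither. Of the 21 rising genes that were enriched, 17 (81.0%) were also higher in INPUT at an unadjusted p under 0.05, where 4.43% of all enriched genes were, with a median of 0.74 in IP and 0.45 in INPUT. Of the 26 rising genes that were neither, 9 were (1.68% of all such genes), and of the 11 that were depleted, 2 were (1.15%). Among the falling genes, 7 of 12 enriched genes were also lower in INPUT, against 6.06% of all enriched genes, with medians of −0.53 and −0.28. The corresponding count was 4 of 26 among falling genes that were neither, against 1.79% of all such genes, and 1 of 33 among depleted genes, against 0.915% of all depleted genes, and the medians of these 33 were −0.49 in IP and −0.04 in INPUT. With the enrichment taken from the 8 naïve libraries alone, an alternative chosen after seeing the data, the shared counts were 13 of 17 enriched, 12 of 25 that were neither and 3 of 16 depleted among the rising genes, and 7 of 14, 4 of 25 and 1 of 32 among the falling genes. Across genes the Pearson correlation of the IP and INPUT effects was 0.46 over the enriched genes, 0.26 over those that were neither and 0.21 over the depleted genes, a description over genes that share the same 16 libraries.

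**Figure D3:**
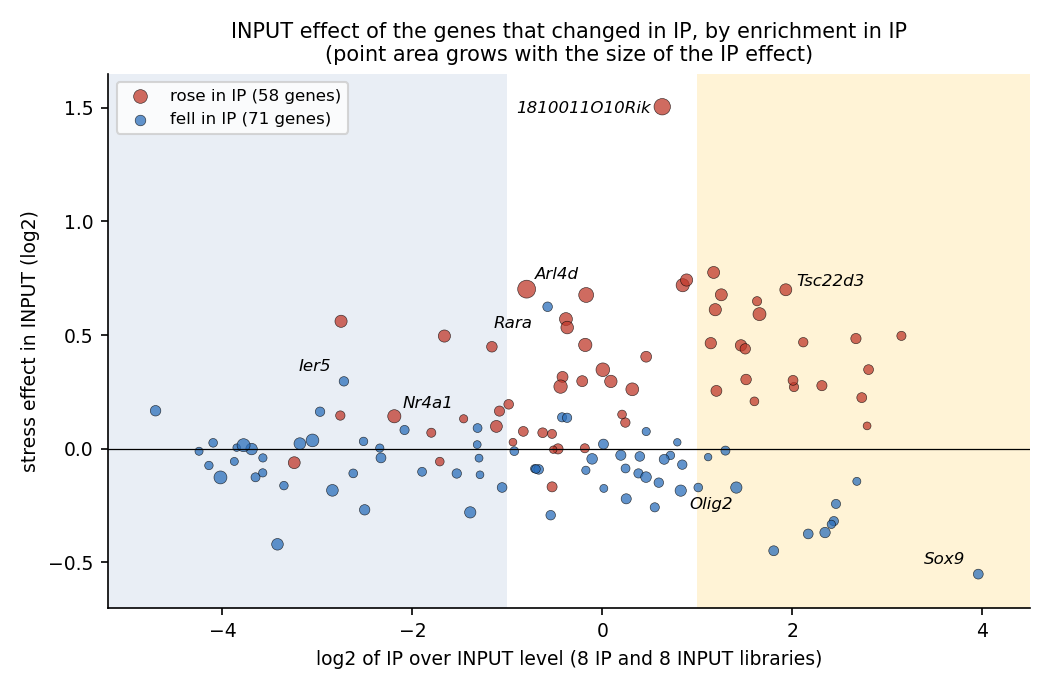
Stress effect in INPUT (vertical axis, log2) of the 129 genes that changed in IP, against their log2 level in IP over INPUT (horizontal axis). Red genes rose and blue genes fell in IP, point area grows with the size of the IP effect, and shading marks genes enriched (right) or depleted (left) by 2-fold. On the right, red and blue points lie on opposite sides of 0, whereas on the left both colours gather near 0.

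Calls in IP rested on how the spread was estimated, most of all among the IP-depleted genes. In the fit of all 16 libraries, 33 of the 71 falling and 11 of the 58 rising genes were depleted in IP, at median naïve IP levels of 9.15 and 8.23 CPM. With limma-voom on the recovered reads, which gives low counts less weight, 6 of the 33 and 5 of the 11 were called, and with IP and INPUT fitted with separate variances 3 of the 33 and 3 of the 11 were. Of the 33 enriched genes, voom called all 33 and the separate fits 22. Of the genes that were neither, voom called 24 of 26 rising and 24 of 26 falling genes. The separate fits called 10 and 14 of them, so calls were lost there too. Most of the neuronal markers also lay lower in stress IP. The sum of the 12 was 709 to 894 CPM in naïve IP and 580 to 829 CPM in stress IP. In IP 10 of the 12 were below 0, with 6 lower and 1 higher at an unadjusted p under 0.05. Of all depleted genes, 11.7% were lower and 2.96% higher in IP at that p. In INPUT 7 of 12 were below 0. Whether fewer neuronal fragments in stress IP took part in these falls was not tested, and less RNA of a kind cannot be told apart from fewer of its cells in libraries of bulk tissue.

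By the smaller of the 2 effects, the 8 largest shared responses were those of 1810011O10Rik, Cebpd, Plekhf1, Arrdc2, Arl4d, Tsc22d3, Nfkbia and Rasl11a, all rising, of which Cebpd, Arrdc2, Tsc22d3 and Nfkbia belong to the list of glucocorticoid targets. Tsc22d3 encodes GILZ, a glucocorticoid-induced leucine zipper protein, on chromosome X from 140539528 to 140600522. It was measured at 195, 282, 442 and 218 CPM in naïve IP and 724, 590, 561 and 529 CPM in stress IP, and at 74.4, 68.5, 113 and 80.3 CPM in naïve INPUT and 145, 126, 138 and 128 CPM in stress INPUT. The stress values were above all naïve values in both fractions, and naïve IP replicate 11 (442 CPM) was the highest naïve library. The effects were 1.14 in IP (standard error 0.19, adjusted p = 0.0044) and 0.70 in INPUT (standard error 0.19, unadjusted p = 0.0017, adjusted p = 0.60), with a difference of 0.44 (95% interval −0.12 to 1.01). Without replicate 11 the IP effect was 1.38 (adjusted p = 2.2e-05).

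Nfkbia, which encodes the NF-κB inhibitor IκBα, had nearly the same pair of effects, 1.14 in IP (adjusted p = 0.004) and 0.68 in INPUT (unadjusted p = 0.0019), from 29.3, 26.4, 56.0 and 32.0 CPM in naïve IP to 84.0, 78.8, 76.0 and 65.9 CPM in stress IP. Its IP effect was 1.38 (adjusted p = 1.7e-05) without naïve IP replicate 11, the library at 56.0 CPM. Cebpd, the transcription factor C/EBPδ, rose from 5.02 ± 0.691 to 11.3 ± 1.90 CPM in IP and was 2.61 ± 1.14 in naïve and 4.35 ± 0.793 CPM in stress INPUT (SD, n = 4 each). Its IP effect of 1.15 had an adjusted p of 0.011, and of 0.056 without naïve IP replicate 2. Rasl11a, a Ras-like small GTPase, went from 5.97, 6.45, 7.17 and 7.28 CPM to 17.3, 15.6, 16.0 and 13.3 CPM in IP (effect 1.20, adjusted p = 0.0014) with an INPUT effect of 0.61 (unadjusted p = 0.0022). For Arrdc2, an arrestin-domain protein, the effects were 1.45 in IP (adjusted p = 0.003) and 0.72 in INPUT (unadjusted p = 0.0053), and for 1810011O10Rik they were 2.46 (adjusted p = 0.0079) and 1.504 (unadjusted p = 0.0033), at levels of 0.349 to 2.66 CPM in naïve IP, where 3 fragments are up to 0.147 CPM. Plekhf1 lost its IP call without naïve IP replicate 2, 8 or 13 or stress IP replicate 4, 5 or 6 (adjusted p up to 0.096).

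Arl4d, a small GTPase of the ARF family, had the largest IP effect of the 129 genes and a smaller one in INPUT. It was 2.06, 2.33, 8.50 and 1.94 CPM in naïve IP and 29.97, 27.8, 26.7 and 16.2 CPM in stress IP, against 8.47, 12.5, 12.6 and 14.4 CPM in naïve and 19.8, 17.0, 17.9 and 22.6 CPM in stress INPUT. Groups did not overlap in either fraction. The effects were 2.99 and 0.70, and the difference of 2.29 (95% interval 1.31 to 3.27) had an unadjusted p of 0.00011 and an adjusted p of 0.18. Without naïve IP replicate 11, the library at 8.50 CPM, the difference was 2.78 with an adjusted p of 3e-05.

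Across the list of glucocorticoid targets, 26 of 27 genes were tested, 11 rose in IP and 0 fell, where 0.967% of all genes were called in either direction, and 14 were higher in INPUT at an unadjusted p under 0.05 (1.83% of all genes) and 0 lower. The list's median effect was 0.55 in IP and 0.45 in INPUT, against −0.0058 and −0.0021 over all genes, and the difference of effects was above 0 at an unadjusted p under 0.05 in 4 of the 26 and below 0 in 0 (4.71% of all genes in either direction). This list and those below were chosen with earlier results of these data known, so their counts and medians are a description and not a test. Apart from those above, the genes of the list that rose in IP were Errfi1, Cebpb, Txnip, Cdkn1a, Rhob, Rhou and Tiparp. Cdkn1a, the cell cycle inhibitor p21, had effects of 1.96 in IP (adjusted p = 0.0057) and 0.68 in INPUT (unadjusted p = 0.062), and Txnip, an inhibitor of thioredoxin, 1.49 (adjusted p = 0.018) and 0.46 (unadjusted p = 0.15). Tiparp, an ADP-ribosyltransferase, had nearly equal effects of 0.58 in IP (adjusted p = 0.011) and 0.47 in INPUT (unadjusted p = 0.00037). Some targets had the larger effect in INPUT, though the differences did not pass. Sgk1, a kinase, was at 0.25 in IP and 0.63 in INPUT (unadjusted p = 0.0048). Ddit4, an mTOR inhibitor, was at 0.52 and 0.63 (unadjusted p = 0.005). The IP effect of Sgk1 was 0.47 without naïve IP replicate 11, and 0.59 without that library and stress IP replicate 15. Its differences in these fits were −0.15 and −0.04, so its gap between fractions rested on these libraries. Fkbp5, a co-chaperone of the receptor, did not pass in either fraction. Its naïve IP values were 6.36, 8.55, 39.8 and 5.31 CPM, with replicate 11 inside the range of the stress IP libraries (20.1 to 71.8 CPM), and its effects were 1.67 (adjusted p = 0.12) and 0.79 (unadjusted p = 0.11). Without replicate 11 Fkbp5 passed in IP, at 2.31 (adjusted p = 0.00043).

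All 28 listed immediate early genes were tested. Nr4a1, Nr4a3 and Gadd45g rose and Jun and Ier5 fell in IP, where 0.967% of all genes were called. At an unadjusted p under 0.05, 8 were higher in INPUT and 0 were lower, against 1.83% and 2.0% of all genes. The 8 were Egr2, Egr4, Fos, Fosb, Fosl2, Ier5, Maff and Nr4a3. The median effect was 0.05 in IP and 0.27 in INPUT, with 16 and 24 of the 28 above 0, and the difference of effects was above 0 in 3 and below 0 in 6 at an unadjusted p under 0.05, against 4.71% of all genes in either direction. None of the 28 passed the adjusted threshold in INPUT or for the difference in this fit. Fosb, an AP-1 subunit, was 9.94, 14.2, 12.9 and 12.4 CPM in naïve INPUT and 23.4, 28.2, 28.6 and 27.5 CPM in stress INPUT, an effect of 1.13 (standard error 0.21, adjusted p = 0.088). In IP it was between 0.448 and 1.57 CPM over the 8 libraries, with an effect of 0.56 (adjusted p = 0.31). Fos was 7.45, 28.0, 14.3 and 22.6 CPM in naïve INPUT and 30.9 to 41.7 CPM in stress INPUT (effect 1.14, unadjusted p = 0.00073) and 2.64 to 4.94 CPM in the IP libraries of both groups (effect 0.14, 95% interval −0.45 to 0.73). Egr4, a zinc finger transcription factor, had effects of −0.18 in IP and 0.60 in INPUT (difference −0.79, unadjusted p = 0.01).

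Nr4a1, an orphan nuclear receptor, showed the reverse of Fos. In IP it was 9.99, 9.99, 8.11 and 12.9 CPM in naïve and 36.1, 22.7, 28.0 and 26.1 CPM in stressed mice, and in INPUT 37.3, 112, 67.5 and 103 CPM in naïve and 87.9, 79.1, 71.6 and 86.0 CPM in stressed mice. The IP groups were apart and the INPUT groups overlapped, with the naïve INPUT libraries spread widely. The effects were 1.45 in IP (standard error 0.24, adjusted p = 0.0044) and 0.14 in INPUT (95% interval −0.37 to 0.65), with a difference of 1.31 (95% interval 0.59 to 2.03, adjusted p = 0.45). Without naïve INPUT replicate 3, the library at 37.3 CPM, the difference was 1.63 with an adjusted p of 0.013. It passed in no other fit without a library and in none of the other settings. Jun, the core AP-1 subunit, fell from 93.6, 66.4, 55.8 and 91.3 CPM to 37.6, 47.5, 39.0 and 46.4 CPM in IP (effect −0.82, adjusted p = 0.0033) and had an INPUT effect of −0.04 (95% interval −0.32 to 0.23).

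**Figure D4:**
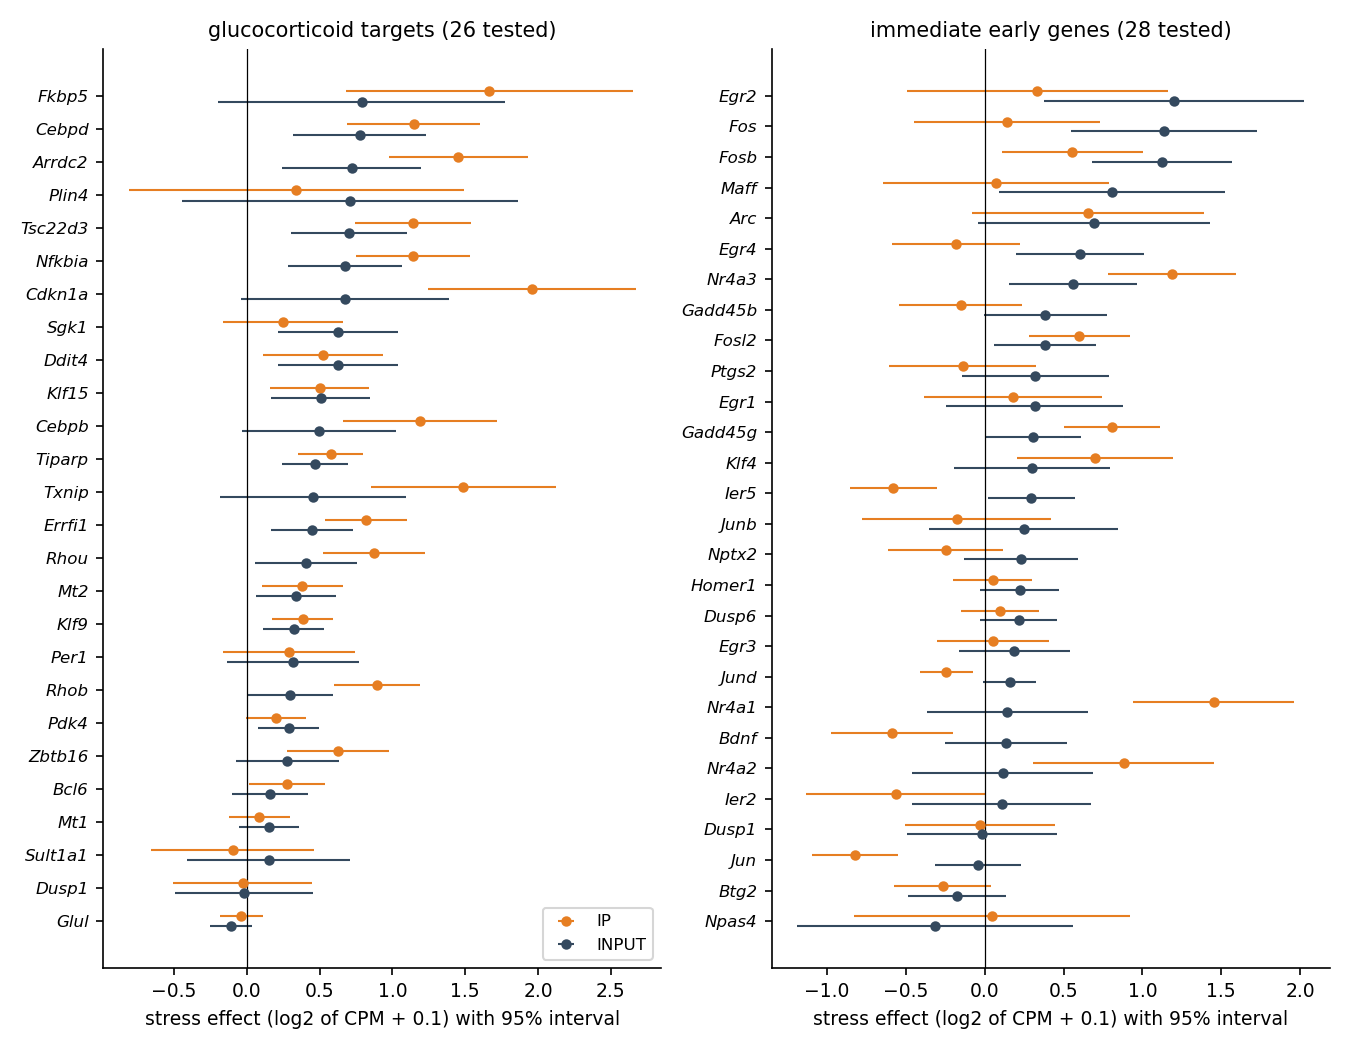
Stress effect (log2 of CPM + 0.1, points) with its 95% interval (lines) in IP (orange) and INPUT (dark) for the 26 glucocorticoid targets and the 28 immediate early genes tested, ordered by the INPUT effect. Glucocorticoid targets lie to the right of 0 in both fractions for most genes, whereas Egr2, Fos and Fosb lie to the right in INPUT and nearer to 0 in IP, and Nr4a1 the other way round.

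Genes that fell in IP and were also lower in INPUT at an unadjusted p under 0.05 included several astrocyte transcription and mRNA decay factors. Sox9, which directs glial fate and stays on in mature astrocytes, was 291, 343, 295 and 348 CPM in naïve IP and 200, 181, 199 and 232 CPM in stress IP, and 19.5, 21.4, 16.1 and 22.3 CPM in naïve INPUT and 12.0, 13.8, 15.8 and 12.2 CPM in stress INPUT. Neither fraction had an overlap between groups. The effects of −0.65 in IP (adjusted p = 0.0041) and −0.55 in INPUT (unadjusted p = 6.4e-05, adjusted p = 0.11) were close, with a difference of −0.10 (95% interval −0.42 to 0.22). Of 12 Sox genes, 12 were below 0 in IP and 10 in INPUT. Their medians were −0.43 and −0.21, against −0.0058 and −0.0021 over all genes. Sox9, Sox2 and Sox1 fell in IP, where 0.967% of all genes were called. In INPUT 4 Sox genes were lower and 1, Sox8, higher at an unadjusted p under 0.05, against 2.0% and 1.83% of all genes. Sox2 had effects of −0.52 in IP (adjusted p = 0.010) and −0.24 in INPUT (unadjusted p = 0.021). The study singled out Sox9 in these IP libraries, so its direction there is not independent evidence.

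Zfp36l1 and Zfp36l2, proteins that bind AU-rich elements and promote mRNA decay, both fell in IP. Zfp36l1 was 59.0, 66.3, 65.8 and 66.7 CPM in naïve IP and 41.3, 45.0, 35.8 and 43.6 CPM in stress IP, with an effect of −0.64 (adjusted p = 0.0012) in IP and −0.37 (unadjusted p = 0.00057) in INPUT. For Zfp36l2 the effects were −0.78 (adjusted p = 0.004) and −0.37 (unadjusted p = 0.0092). The third member, Zfp36, had 0.64 in IP (adjusted p = 0.32) and 0.15 in INPUT. Gas1, a membrane protein of growth arrest, had effects of −0.54 and −0.32, the zinc finger gene Zfp217 of −0.67 and −0.45, and Sall1, a transcription factor, of −0.37 and −0.33, each with an adjusted p under 0.05 in IP and an unadjusted p under 0.05 in INPUT.

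Of the 129 genes, 87 had no unadjusted p under 0.05 in INPUT, 30 rising and 57 falling. The INPUT effect lay within 0.15 of 0 in 16 of the rising and 47 of the falling genes. Over all genes tested the SD of the INPUT effect was 0.144, so a value this near 0 does not set these genes apart. The difference of effects had an unadjusted p under 0.05 in 15 of the 16 and 45 of the 47, against 4.71% of all genes. As these genes were chosen by their IP effect, which the difference contains, these counts describe them and are not a test. Without a call of the difference itself, a missing response in INPUT is not shown, and an effect in INPUT can be too small to detect where astrocytes hold a small share of the RNA.

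Among them were Spry2 and Erf of the FGF and ERK feedback list and Axin2 and Bcl9l of the Wnt pathway list. Spry2, an inhibitor of receptor tyrosine kinase signalling, was 114, 110, 106 and 130 CPM in naïve IP and 60.6, 77.2, 69.1 and 83.7 CPM in stress IP (effect −0.67, adjusted p = 0.0044), with overlapping INPUT values and an INPUT effect of −0.05 (95% interval −0.28 to 0.19). Of the 16 FGF and ERK feedback genes, Spry2 and the ETS repressor Erf fell in IP and 0 rose (0.967% of all genes were called). The median was −0.09 in IP and 0.06 in INPUT. At an unadjusted p under 0.05 the difference was below 0 in 5 and above 0 in 1 (4.71% of all genes in either direction). One of the 5, Dusp4, a phosphatase of ERK, was at −0.22 in IP and 0.60 in INPUT (unadjusted p = 0.0045), from 7.12 to 9.01 CPM in naïve to 10.7 to 14.1 CPM in stress INPUT. Of 32 tested Wnt pathway genes, Axin2 and Bcl9l, a coactivator of β-catenin, fell and the receptor Fzd1 rose in IP, against 0.967% of all genes. The list median was −0.15 in IP and −0.0092 in INPUT. Bcl9l had effects of −0.59 (adjusted p = 0.0079) and −0.15 (unadjusted p = 0.18), and Fzd1 of 0.54 (adjusted p = 0.011) and 0.27 (unadjusted p = 0.016).

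Ephb3, a receptor for ephrin-B ligands, fell from 64.6, 62.7, 43.5 and 61.9 CPM to 28.4, 36.1, 28.0 and 37.9 CPM in IP (effect −0.83, adjusted p = 0.0026) and had an INPUT effect of −0.13 (95% interval −0.39 to 0.14). All 17 tested Eph receptors and ephrins were below 0 in IP and 11 of 17 in INPUT. Their medians were −0.16 and −0.05, against −0.0058 and −0.0021 over all genes, and Ephb3 was the member that passed. Of the 11 tested Arl4, Rnd and related small GTPases, Arl4d, Rhob and Rhou rose and Arl4c and Rnd3 fell in IP, against 0.967% of all genes. Rnd3, which antagonises RhoA, was 25.2, 26.1, 20.3 and 29.2 CPM in naïve and 12.3, 16.9, 17.0 and 16.1 CPM in stress IP, and 19.4 ± 2.22 and 19.6 ± 1.23 CPM in naïve and stress INPUT (SD, n = 4 each). Its effects were −0.69 (adjusted p = 0.0056) and 0.02 (95% interval −0.23 to 0.27), and Arl4c had −0.67 (adjusted p = 0.0014) and −0.04.

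Trim8, an E3 ubiquitin ligase, and Zfp608, a zinc finger gene, also fell in IP with INPUT near 0. Trim8 was 206, 191, 218 and 217 CPM in naïve and 156, 130, 137 and 136 CPM in stress IP (effect −0.58, adjusted p = 0.00043), with an INPUT effect of −0.07 (95% interval −0.23 to 0.08). Zfp608 had effects of −0.62 (adjusted p = 0.00033) and −0.03. The differences of Trim8 and Zfp608 were −0.51 and −0.59, with adjusted p-values of 0.18 and 0.082. Without naïve IP replicate 11 that of Zfp608 passed (adjusted p = 0.022).

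Rising genes with no unadjusted p under 0.05 in INPUT included enzymes of one-carbon metabolism. Mat2a, which makes S-adenosylmethionine, was 99.9, 96.2, 115 and 102 CPM in naïve and 164, 168, 155 and 129 CPM in stress IP (effect 0.57, adjusted p = 0.0027), with an INPUT effect of 0.11 (95% interval −0.07 to 0.30). Mthfd2, a mitochondrial folate enzyme, had effects of 1.60 (adjusted p = 0.001) and 0.35 (95% interval −0.11 to 0.81), from 2.23 ± 0.985 to 6.65 ± 1.26 CPM in IP (SD, n = 4 each). Of the 19 tested genes of the serine, one-carbon and ATF4 list these 2 rose in IP and 0 fell, against 0.967% of all genes. The list medians were 0.04 in IP and 0.03 in INPUT. Coq10b, a coenzyme Q-binding protein of mitochondria, was 10.5, 12.0, 14.1 and 11.8 CPM in naïve and 17.9, 19.2, 20.8 and 22.7 CPM in stress IP (effect 0.73, adjusted p = 0.004), and 21.6 ± 1.76 and 21.8 ± 3.59 CPM in naïve and stress INPUT.

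The largest IP effects with INPUT near 0 after Nr4a1 came from genes of low level in IP. Tyrobp, a signalling adaptor of microglia, was 1.37, 1.03, 0.587 and 0.465 CPM in naïve IP and 0.268, 0.296, 0.0913 and 0.362 CPM in stress IP, against 6.21 to 9.70 CPM in the 8 INPUT libraries. Cd53, a leukocyte tetraspanin, went the other way in IP, from 0.196, 0.537, 0.274 and 0.194 CPM to 0.758, 0.592, 0.776 and 0.804 CPM, against 4.38 to 6.18 CPM in INPUT. The 10 microglial markers summed to 42.7 to 49.9 CPM in naïve and 43.1 to 61.2 CPM in stress IP, with 2 higher and 0 lower at an unadjusted p under 0.05. The glutamate transporter Slc1a6 (effect −1.07) and the heat shock factor Hsf4 (−1.03) were of the same kind, each below 2 CPM in IP. With limma-voom on the recovered reads Tyrobp, Cd53, Slc1a6 and Hsf4 no longer passed (adjusted p = 0.12, 0.076, 0.054 and 0.086), and without naïve IP replicate 2 none of the 4 did either (adjusted p between 0.059 and 0.089). Tyrobp also lost its call without naïve IP replicate 8 or stress IP replicate 6, Cd53 without naïve IP replicate 13 or stress IP replicate 4 or 6, and Hsf4 without naïve IP replicate 13, with adjusted p-values of up to 0.077. Atg9b was at 0 fragments in stress IP replicates 4 and 6, a count that allows up to 0.134 and 0.137 CPM, and its IP effect of −1.39 passed neither with voom nor with a pseudocount of 1 CPM (adjusted p = 0.063 and 0.41). It lost the call in 12 of the 16 fits without a library (adjusted p up to 0.13), and Pcdha2, which shares exons with the other members of its cluster so that its counting is uncertain, in 14 of 16 (up to 0.17). Fam43a was 5.38, 5.87, 15.2 and 6.43 CPM in naïve and 21.5, 15.4, 17.7 and 12.4 CPM in stress IP (effect 1.13, adjusted p = 0.019), and lost the call without naïve IP replicate 2, 8 or 13 or stress IP replicate 4 or 6 (adjusted p up to 0.089). Without naïve IP replicate 11 its difference of effects was 1.37 (adjusted p = 0.0039).

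Responses in opposite directions were few. At an unadjusted p under 0.05 in both fractions, 142 genes moved the same way (1.06% of those tested, 69 up and 73 down). Another 13 moved in opposite ways (0.0974%). At that p 7.14% of all genes were lower and 3.86% higher in IP, and 1.83% were higher and 2.0% lower in INPUT. Unrelated effects with these shares would also give genes of opposite signs, so the count by itself does not show opposite responses. The 13 were listed for their opposite signs, so their values are a description. Of these, 11 were lower in stress IP and higher in stress INPUT (Rara, Efnb1, Angptl4, Ier5, Trib2, Midn, Fam53b, Bmp7, Rasd1, Zfp553 and Bhlhe40), and Klf6 and Cwf19l2 were higher in IP and lower in INPUT. Rara and Ier5 were called in IP after adjustment, none of the 13 was in INPUT, and for Rara the difference passed.

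Efnb1, the ephrin-B1 ligand of Eph receptors, was 13.6, 11.6, 11.2 and 14.4 CPM in naïve and 9.32, 8.93, 10.9 and 10.3 CPM in stress IP, and 12.2, 16.1, 16.1 and 17.2 CPM in naïve and 23.4, 23.3, 20.8 and 22.2 CPM in stress INPUT. The groups were apart in both fractions. The effects were −0.36 (adjusted p = 0.19) and 0.55 (adjusted p = 0.16), and the difference of −0.91 (95% interval −1.24 to −0.57) had an adjusted p of 0.066, or 0.013 without naïve IP replicate 11.

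Angptl4, a secreted inhibitor of lipoprotein lipase that is 2.75-fold enriched in IP, was 7.78, 6.23, 6.46 and 9.06 CPM in naïve and 5.84, 5.28, 5.61 and 2.77 CPM in stress IP. In INPUT it was 1.69, 1.00, 1.55 and 1.53 CPM in naïve and 2.50, 2.18, 3.65 and 3.97 CPM in stressed mice, again without overlap. The effects were −0.63 (adjusted p = 0.32) and 1.02 (adjusted p = 0.36), with a difference of −1.65 (adjusted p = 0.18). Klf6, a zinc finger transcription factor, was 41.4, 37.7, 40.5 and 36.4 CPM in naïve and 42.3, 47.5, 43.8 and 43.3 CPM in stress IP, and 122, 93.9, 115 and 90.4 CPM in naïve and 85.4, 86.5, 86.6 and 83.9 CPM in stress INPUT. Its effects were 0.18 and −0.29 (difference 0.47, adjusted p = 0.35).

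Ier5, an immediate early gene linked to heat shock factor activity, was 20.0, 18.05, 16.7 and 19.5 CPM in naïve and 11.5, 11.5, 10.5 and 16.8 CPM in stress IP. In INPUT it was 78.8, 103, 78.2 and 106 CPM in naïve and 110, 120, 96.0 and 121 CPM in stressed mice. The groups overlapped in both fractions, in IP through stress replicate 15 (16.8 CPM). The effects were −0.58 (adjusted p = 0.038) and 0.30 (unadjusted p = 0.037), and the difference of −0.87 had an adjusted p of 0.19, or 0.0075 without stress IP replicate 15. The difference passed in 1 of the 16 fits without a library. The IP call itself was lost in 8 of the 16 fits without a library (adjusted p up to 0.14), those without naïve IP replicate 2, 8 or 13, stress IP replicate 4, 5 or 6, or stress INPUT replicate 1 or 12. Rasd1, a Ras-related protein induced by dexamethasone, was at 0.228 to 0.930 CPM in IP, and had effects of −0.70 in IP and 0.97 in INPUT (from 1.51 ± 0.331 to 3.21 ± 1.35 CPM, SD, n = 4 each).

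**Figure D5:**
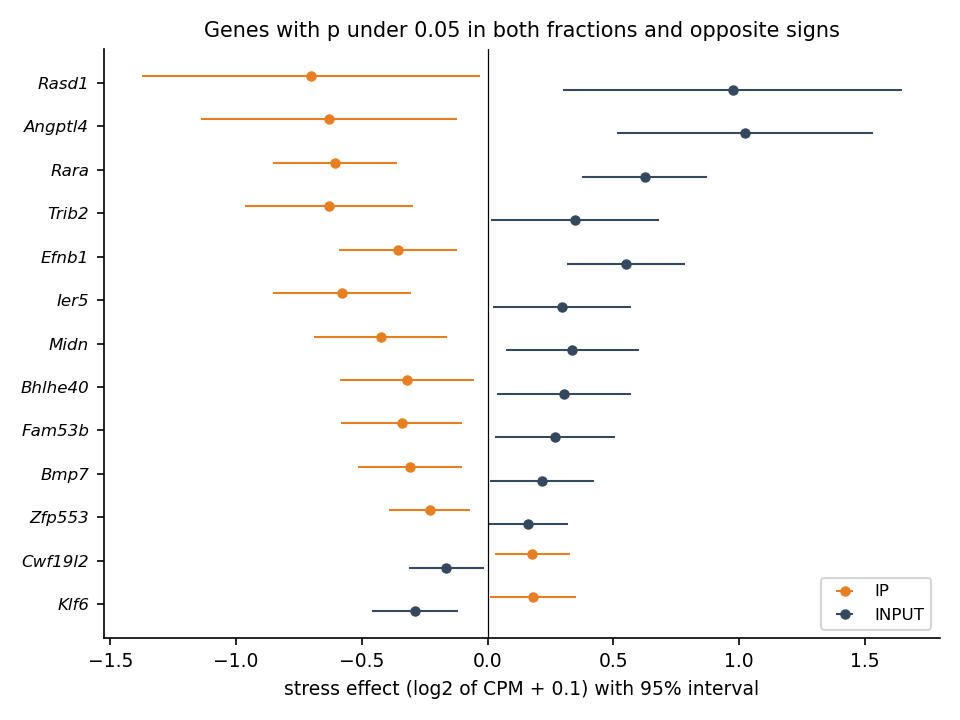
Stress effect (log2 of CPM + 0.1, points) with its 95% interval (lines) in IP (orange) and INPUT (dark) for the 13 genes with an unadjusted p under 0.05 in both fractions and opposite signs. The 11 upper genes lie below 0 in IP and above 0 in INPUT, and Cwf19l2 and Klf6 the other way round.

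The 4 genes that rose in INPUT after adjustment were read in IP in turn. Zfp189, a zinc finger transcription factor, was 13.0, 13.7, 20.5 and 15.2 CPM in naïve and 30.7, 22.9, 28.5 and 29.8 CPM in stress INPUT (effect 0.85, adjusted p = 0.017), and 9.25, 9.09, 9.40 and 9.80 CPM in naïve and 11.7, 11.8, 10.9 and 11.6 CPM in stress IP (effect 0.29, adjusted p = 0.37). The groups did not overlap in either fraction. Nedd9, a scaffold protein of focal adhesions that is enriched in IP, rose in both, from 15.2, 18.4, 15.7 and 16.9 CPM to 27.8, 25.7, 23.6 and 26.8 CPM in INPUT (effect 0.65, adjusted p = 0.017) and from 49.98, 50.9, 62.7 and 50.9 CPM to 64.8, 82.9, 75.2 and 88.2 CPM in IP (effect 0.53, adjusted p = 0.0087), and was the one gene called in both.

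Elmsan1 and Sap30 both encode components of histone deacetylase complexes. Elmsan1 was 28.2, 32.4, 34.8 and 35.2 CPM in naïve and 44.1, 43.6, 47.4 and 46.2 CPM in stress INPUT (effect 0.48, adjusted p = 0.050), with overlapping values of 30.3 to 38.5 CPM in IP (effect 0.04, 95% interval −0.13 to 0.20). Sap30 rose from 5.48 ± 0.756 to 9.52 ± 1.92 CPM in INPUT (effect 0.77, adjusted p = 0.050) and was 11.4 ± 1.22 and 13.8 ± 0.480 CPM in IP (effect 0.29, adjusted p = 0.44; SD, n = 4 each). Elmsan1 and Sap30 each lost the call in 12 of 16 fits without a library, with adjusted p-values of up to 0.21. Elmsan1 kept it without naïve INPUT replicate 14, naïve IP replicate 2 or 11 or stress IP replicate 15, and Sap30 without naïve INPUT replicate 14, naïve IP replicate 11, stress INPUT replicate 1 or stress IP replicate 15. Zfp189 lost it without naïve INPUT replicate 3 or 16 or stress INPUT replicate 1, 10 or 12, and Nedd9 without naïve INPUT replicate 3 or 16 or stress INPUT replicate 1 or 12 (adjusted p up to 0.12 and 0.13). Zfp189 did not pass with separate variances or without a variance trend, nor Nedd9 with voom or without a trend (adjusted p up to 0.064 and 0.10). Of 11 other settings Elmsan1 passed in 6 and Sap30 in 5. With array weights 54 genes were called in INPUT, and 19 had a different effect.

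Read from INPUT at an unadjusted p under 0.05, 69 of the 244 higher genes (28.3%) were also higher in IP at that p, against 3.86% of all genes, and 73 of the 267 lower genes (27.3%) were also lower, against 7.14%. Read from IP these were 13.4% of the 515 higher and 7.66% of the 953 lower genes. Of the 76 IP-enriched genes that were higher in stress INPUT 36 were higher in stress IP, against 5.89% of all enriched genes, and of the 104 that were lower 32 were lower, against 4.78%.

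The remaining lists held few calls. Over all genes tested 0.967% were called in IP and 0.03% in INPUT, with median effects of −0.0058 and −0.0021. For insulin and IGF signalling, 19 genes were tested, and the 2 insulin receptor substrates parted, with Irs2 rising from 28.0, 26.9, 46.1 and 30.4 CPM to 97.5, 82.0, 68.4 and 72.5 CPM in IP (effect 1.30, adjusted p = 8.5e-05, INPUT effect 0.53, unadjusted p = 0.0012) and Irs1 falling (−0.36, adjusted p = 0.029, INPUT effect −0.10). The IP effect of Irs2 was 1.48 without naïve IP replicate 11, the library at 46.1 CPM, and its difference of effects, 0.95, passed (adjusted p = 0.0077). The differences of Txnip, Mthfd2 and Jun also passed without that library (adjusted p = 0.022, 0.010 and 0.012). Of the fits that left out a single library, the differences of Irs2, Txnip, Mthfd2, Jun, Arl4d, Zfp608, Fam43a and Efnb1 passed in that fit alone. Among 24 genes of BMP and TGF-beta signalling, the decoy receptor Bambi rose in IP, from 1.61 ± 0.324 to 4.36 ± 0.514 CPM (effect 1.39, adjusted p = 0.00037), with an INPUT effect of 0.57 (unadjusted p = 0.0039). Among 18 Notch pathway genes Dtx1 fell (−0.22, adjusted p = 0.021, INPUT effect 0.03), and 15 of 18 were below 0 in IP against 10 in INPUT. Of 15 retinoid genes Rara was the one called in IP, and Rarg had −0.59 (adjusted p = 0.056) and −0.33.

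For glycogen metabolism, 17 genes were tested, and the phosphatase subunits Ppp1r3c and Ppp1r3g, which direct protein phosphatase 1 to glycogen, rose in IP. Ppp1r3g was 105, 106, 124 and 102 CPM in naïve and 156, 177, 142 and 151 CPM in stress IP (effect 0.52, adjusted p = 0.0057), and 12.0, 13.1, 13.7 and 10.4 CPM in naïve and 19.0, 16.7, 17.5 and 16.3 CPM in stress INPUT (effect 0.50, unadjusted p = 3.1e-05), with a 95% interval of the difference of −0.24 to 0.29. Of 13 genes of the glucose and lactate shuttle none was called in either fraction. At an unadjusted p under 0.05 in limma 0 passed in IP and 2 were higher in INPUT, against 1.83% of all genes. These were the glucose transporter Slc2a1 (0.03 in IP and 0.39 in INPUT, unadjusted p = 0.0012) and Pfkfb3. The connexin genes of the shuttle gave −0.07 in IP and −0.17 in INPUT for Gja1, with a difference of 0.09 (95% interval −0.14 to 0.33), and 0.15 and 0.05 for Gjb6, with a difference of 0.10 (95% interval −0.27 to 0.47). Of 18 circadian and 19 heat shock and cold-inducible genes 0 were called in either fraction. At an unadjusted p under 0.05 in limma 4 clock genes were lower and 1 heat shock gene higher in IP (7.14% and 3.86% of all genes). In INPUT 1 clock gene was higher and 2 were lower at that p (1.83% and 2.0% of all genes). Among the heat shock genes 1, Dnajb5, was higher in INPUT (effect 0.39, unadjusted p = 0.00055).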

How the data were processed

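RNA of IP and INPUT was sequenced in 16 libraries. STAR alignment to mm10 and HTSeq counting of uniquely mapped fragments on RefSeq genes were done by the authors, who deposited log2 CPM values of 24060 genes per library, with a shared floor at −6.40. From these, CPM and whole reads were recovered (100% whole within 0.05), at a depth of 16392876 to 25814364 fragments, so 3 fragments are at most 0.183 CPM, which covers counting error only. limma 3.58.1 (R 4.3.3) was fitted to log2(CPM + 0.1) of all 16 libraries with a mean-dependent variance and Benjamini-Hochberg adjustment. It was also run on simulated reads of independent libraries with the same dispersion for all genes. That simulation held no outlying libraries and no mice shared by IP and INPUT. Unadjusted p-values come from the limma fit of the 16 libraries. They weigh each effect against the spread between libraries within groups, estimated for IP and INPUT together. The 16 libraries were taken as independent. Coordinates are from RefSeq (GRCm38.p6), and Python 3.11.15 made the tables.

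Named genes are those with an adjusted difference, those called in INPUT, the 8 largest shared, opposite and INPUT-near-0 genes, the 4 smallest p-values of the difference on each side, members of 17 lists past a threshold, Sox9, Gja1 and Gjb6. The 13 opposite genes and a few shared ones were named after their values were seen. The members and lists were chosen with earlier results of these data known. The alternatives were other pseudocounts, filters, scalings, variance models, voom, array weights, Xist as a covariate and each library left out. The fit without replicates 11 and 15 and the enrichment from naïve libraries were added after seeing the data. Xist was high in 2 libraries of each group. Results of 2 genes that the rule named are not reported here.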

Additional observations from a re-analysis of the deposited data

Results flagged for a closer look

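The difference of stress effects passed its own test in Zswim6 (1.1), Rara (−1.23) and Axin2 (−0.699), each as the IP effect minus the INPUT effect on the log2 scale. That of Axin2 did not pass without a variance trend (adjusted p = 0.086) or in 9 of the 16 fits without a library.

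Among the 34 named genes, 136 groups of 4 libraries were searched for a library far from the other 3, and 9 were found, of which 8 are given here, where chance gives about 6.8. Naïve IP replicate 11 accounted for 5 of the 9, and in each it lay on the side of the stress libraries. It was at 62.7 CPM for Nedd9 (the others 49.98 to 50.9), 2.66 CPM for 1810011O10Rik (0.349 to 0.582), 20.6 CPM for Arrdc2 (9.30 to 10.8), 8.5 CPM for Arl4d (1.94 to 2.33) and 15.2 CPM for Fam43a (5.38 to 6.43). Naïve IP replicate 2 was lowest for Elmsan1 at 30.3 CPM (35.7 to 36.6). Stress IP replicate 15 was highest for Ier5 at 16.8 CPM (10.5 to 11.5). Stress INPUT replicate 12 was highest for Fam43a at 27.8 CPM (23.8 to 24.2). What set these libraries apart was not tested.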

How the results depend on the processing

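No paired analysis was possible because the library numbers run from 1 to 16 over the groups and no 2 groups share a number. No called result changed sign. Effects near 0 that were not called did, such as that of Axin2 in INPUT (−0.07 to 0.03 without 1 library) and of Elmsan1 in IP (−0.03 to 0.07). With array weights 19 genes had a different effect, 54 were called in INPUT, 45 and 26 of the rising and falling genes in IP were shared and 16 genes called in IP also had a different effect (separated). Genes called in INPUT numbered 2 with median-ratio scaling, 2 with quantile normalization and 0 without a variance trend, where 529 had an unadjusted p under 0.05 in limma. Separate variances left 58 genes in IP. Opposite genes called in IP numbered 1 with voom, without a filter, with separate variances and without a trend. Without naïve IP replicate 11 and stress IP replicate 15, an alternative chosen after seeing the data, 375 genes were called in IP, 14 in INPUT and 59 for the difference, with 53 shared rising, 37 shared falling, 5 opposite and 56 separated genes. Leaving out each library gave 59 to 416 genes in IP, 0 to 10 in INPUT, 2 to 28 for the difference, 19 to 43 shared rising, 5 to 33 shared falling, 0 to 4 opposite and 1 to 27 separated. The cause of these shifts was not tested. Genes under 1 CPM in IP rest on few fragments, and INPUT effects of astrocyte genes can fall below what 4 libraries a group detect.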
